A study of Mus musculus with 15 samples.

Results

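The genes for the proteins of the cytosolic ribosome were examined in EL4 cells, a mouse T lymphocyte lymphoma line of the C57BL/6N strain. They were taken as the autosomal protein-coding genes of the mouse whose RefSeq symbols begin with Rpl (large subunit) or Rps (small subunit), without the Rps6k kinase genes. This gave 87 of 20661 autosomal protein-coding genes on GRCm38. Of the 87, 73 are core genes named as subunits of the ribosome, 43 for the large and 30 for the small subunit. Another 13 are paralogs and retrogenes named after a core gene, such as Rpl3l and Rpl39l, and 1, Rps19bp1, is named for a protein that binds a ribosomal protein.

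The 12 libraries used were ChIP-seq, which recovers DNA bound to a modified histone with an antibody, for H3K4me3, H3K9ac, H3K27ac, H3K36me2 and H3K27me3, and ATAC-seq, in which the Tn5 transposase cuts accessible DNA, with 2 replicates of each. All came from the same unmodified line in standard medium, so there is no treatment or control group among them. The methods describe replicates as technical, and the spread given below is that between these 2 libraries. The files list where each mark was called and hold no height or count, so a gene is described by whether an interval lies in its window, how wide the interval is and how much of the gene it covers. An interval counted when it shared at least 1 bp with the gene span plus 2 kb on each side. The comparison genes were 3362 other autosomal protein-coding genes of similar length (1292 to 6002 bp, the 10th to 90th percentile of the 87 genes). Each list held 17519 to 28279 intervals for the 3 narrow marks and ATAC-seq and 38014 to 46015 for the 2 broad marks. H3K4me3 was listed at 7 of 7 T cell markers (Cd3d, Cd3e, Cd3g, Cd2, Thy1, Lck and Tcf7) in both replicates, at 2 of 4 B cell markers, 3 of 4 myeloid markers, 0 of 3 epithelial markers and 2 of 3 fibroblast markers, against 52.6% of all autosomal genes.

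A ribosome needs most of its proteins in equal numbers, and the genes for ribosomal proteins are spread over the genome as single genes that are active in all growing cells. H3K4me3, H3K9ac and H3K27ac are found around the starts of active genes, and ATAC-seq peaks mark the stretch free of nucleosomes at the start itself. H3K36me2 lies in broad domains over genes and between them, and H3K27me3 is the mark of Polycomb repression. Messenger RNAs of ribosomal proteins are known for a terminal oligopyrimidine tract, a C at the first base followed by a run of C and T, through which their translation is tuned to growth.

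That feature was visible in the RefSeq promoter sequences (GRCm38.p6), which were listed for 66 of the 87 genes and 53 of the 73 core genes. Among these 53, 12 (22.6%) had a C at the annotated first base followed by at least 4 pyrimidines, against 2.17% of all 16456 promoters, 2.32% of those of genes of similar length with H3K4me3 and 0 of 69 genes for mitochondrial ribosomal proteins. With the C allowed within 5 bases of the annotated start, 25 core genes (47.2%) had such a run, against 19.1% of all promoters and 23.2% of mitochondrial ribosomal protein genes. Of the 12 paralogs with a listed promoter, 2 (16.7%) had the run at the annotated first base and 5 (41.7%) within 5 bases. The 60 bases around 7 starts are shown, 35 before the annotated start and 25 from it, with the run of C and T that begins within 5 bases of the start in capitals. Rps6 and Rps15a are shown as genes with all active marks, and Rpl15 and Rpl13a as genes without them. Rpl11 and Rpl41 are core genes without a run in this place, and Rpl10l is a paralog without one.
Rps6 (chr4:86857343-86857402, minus strand): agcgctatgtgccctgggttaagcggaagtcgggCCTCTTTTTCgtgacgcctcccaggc
Rps15a (chr7:118116123-118116182, minus strand): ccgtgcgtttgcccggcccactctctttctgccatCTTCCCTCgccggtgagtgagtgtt
Rpl15 (chr14:18270962-18271021, minus strand): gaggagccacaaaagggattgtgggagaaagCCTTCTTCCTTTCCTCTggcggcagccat
Rpl13a (chr7:45128721-45128780, minus strand): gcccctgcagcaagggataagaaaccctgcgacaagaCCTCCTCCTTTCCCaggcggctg
Rpl11 (chr4:136053369-136053428, minus strand): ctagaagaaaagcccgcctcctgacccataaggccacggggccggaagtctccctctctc
Rpl41 (chr10:128549144-128549203, minus strand): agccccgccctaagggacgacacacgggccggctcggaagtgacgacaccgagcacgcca
Rpl10l (chr12:66284377-66284436, minus strand): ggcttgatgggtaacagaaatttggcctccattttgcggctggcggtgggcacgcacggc

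The run was 10 bases long in Rps6, 8 in Rps15a, 17 in Rpl15 and 14 in Rpl13a. In windows of 300 bases (250 before the start and 50 from it), CGGAAG, the core of sites of ETS factors, was found on either strand in 69.8% of core promoters, 55.1% of mitochondrial ribosomal protein promoters, 33.6% of those of genes of similar length with H3K4me3 and 21.9% of all promoters. AAGATGG, part of sites of YY1, was found on either strand in 17.0%, 18.8%, 7.06% and 6.4% of them. GGGCGG, an Sp1 box, was found in 58.5% of core promoters and in 60.1% of those of genes of similar length with H3K4me3, and TATAAA in 7.55% and 10.6%. The motifs were counted separately, so matches can share bases, and a match is a description of the sequence only.

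The core ribosomal protein genes carried the marks of active starts with few exceptions. H3K4me3 was listed in both replicates at 72 of the 87 genes (82.8%) and at 66 of the 73 core genes (90.4%), against 39.9% of genes of similar length and 52.6% of all autosomal genes. H3K9ac was listed at 65 core genes (89.0%), against 39.2% of genes of similar length and 51.4% of all. H3K27ac was listed at 66 core genes (90.4%), against 39.7% and 52.4%. ATAC-seq peaks were listed at 65 core genes (89.0%), against 34.6% and 48.0%.

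All 4 of these sets were present in both replicates at 69 of the 87 genes (79.3%) and 63 of the 73 core genes (86.3%), against 33.6% of genes of similar length and 46.2% of all genes. Both subunits were close in these counts, with all 4 sets at 38 of 43 large and 25 of 30 small subunit genes. The 78 genes for mitochondrial ribosomal proteins, which make the ribosome of another compartment, had H3K4me3 in 94.9% and all 4 sets in 84.6%. Replicates hardly differed, since no member had H3K4me3 in 1 replicate only, 1 had H3K9ac, 1 had H3K27ac and 3 had ATAC-seq in 1 replicate only. Genes are not replicates, and no test was made of any difference between gene groups.

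**Figure D1:**
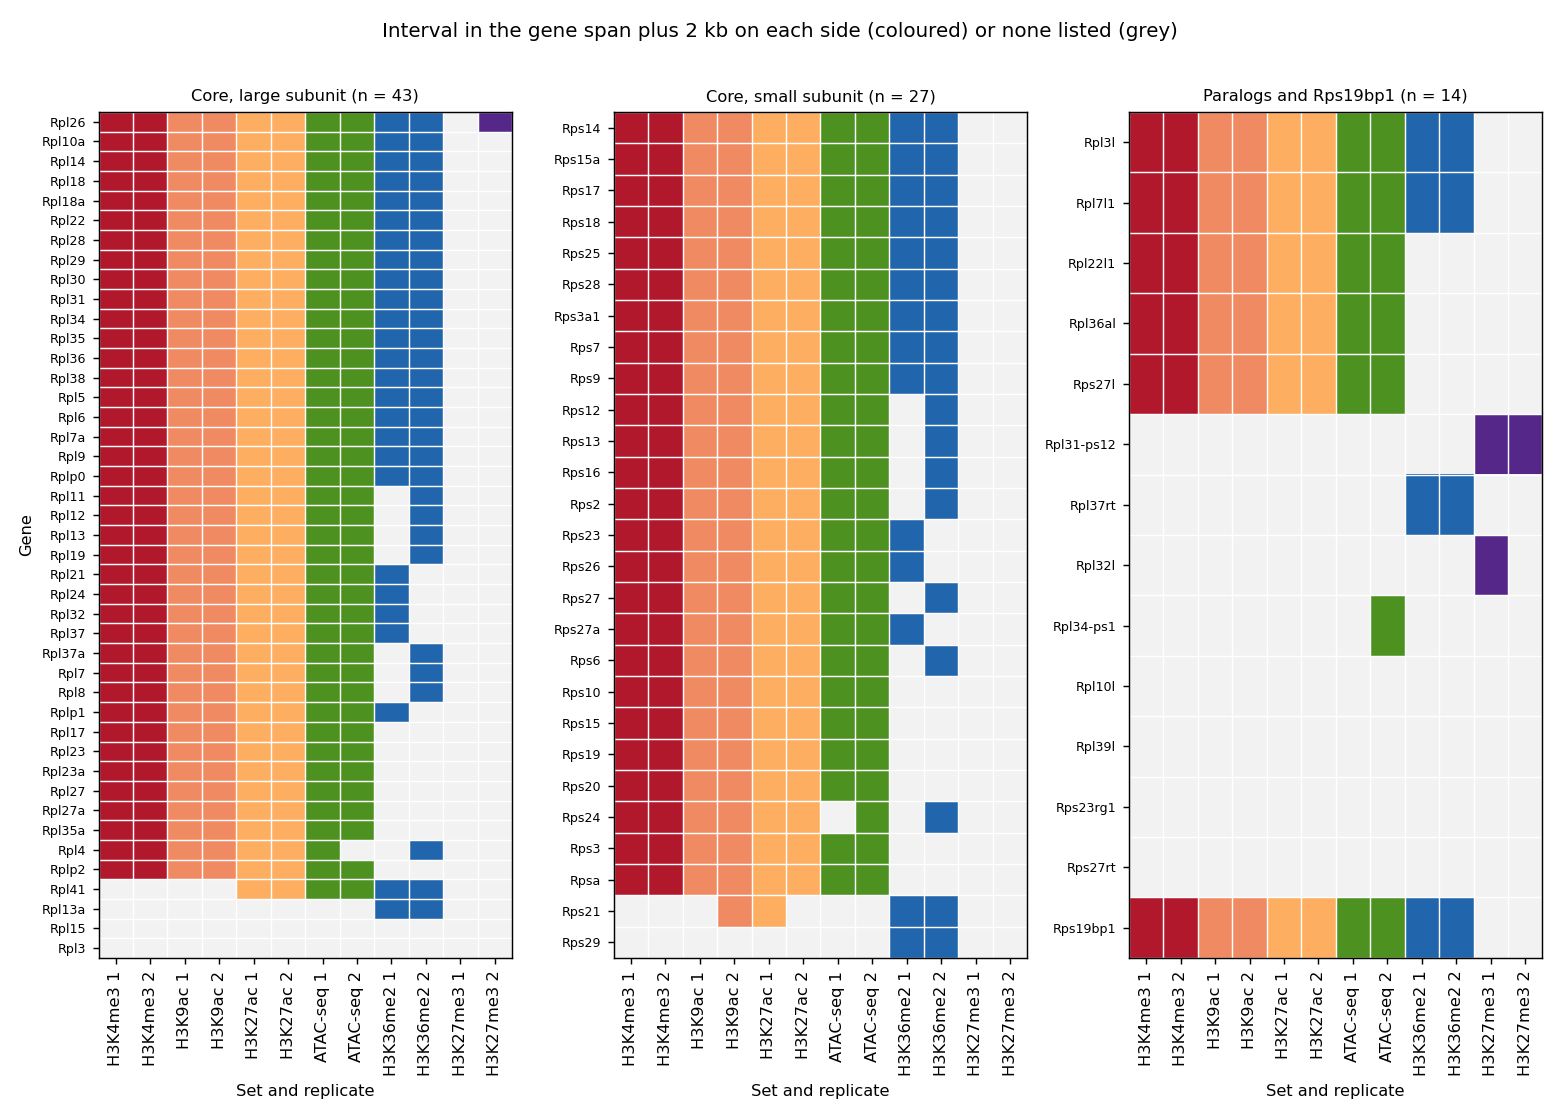
Presence of an interval of each of 6 sets (columns, replicates 1 and 2 side by side) in the gene span plus 2 kb on each side, for 84 of the 87 genes (rows), with grey where none is listed. Most core rows are filled for H3K4me3, H3K9ac, H3K27ac and ATAC-seq, H3K36me2 varies among them, and 8 of the 13 paralogs have no H3K4me3.

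**Figure D2:**
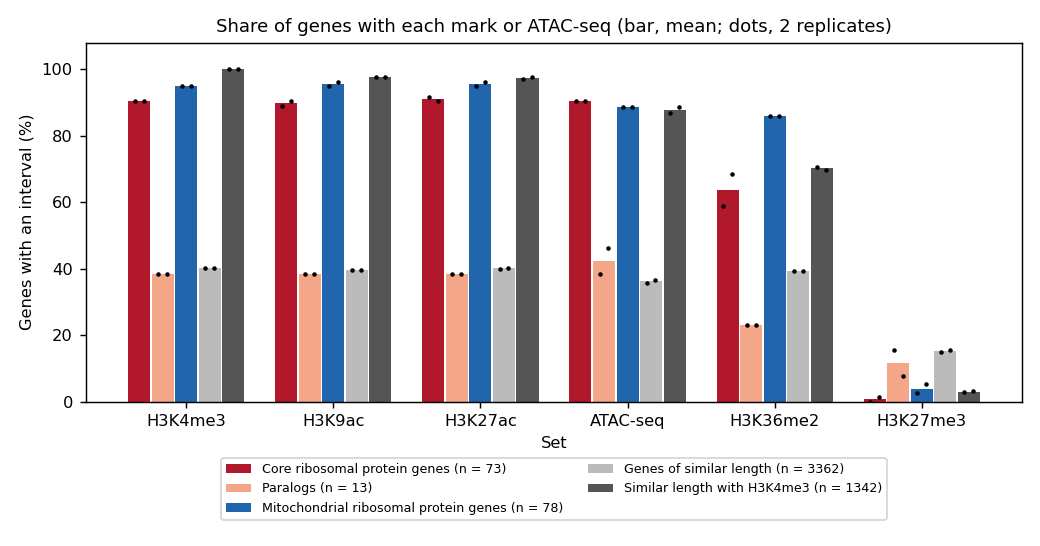
Percent of genes with an interval of each set, with bars for the mean of 2 replicates and dots for the replicates. Core ribosomal protein genes reach 89.7 to 91.1% in the 4 narrow sets and 63.7% for H3K36me2. Mitochondrial ribosomal protein genes, whose spans are longer, reach 85.9% for H3K36me2.

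Polycomb marks were almost missing from these genes, as they were from genes of similar length with H3K4me3. H3K27me3 was listed in both replicates at 1 of the 87 genes (1.15%) and at 0 of the 73 core genes, against 11.3% of genes of similar length, 18.7% of all genes and 1.56% of genes of similar length with H3K4me3. The gene with both is the retrogene Rpl31-ps12 (chr16:16819713-16820196), with intervals of 4399 and 13999 bp, and its nearest H3K4me3 peaks lay 50025 and 50073 bp away. The retrogene Rpl32l (chr10:20208439-20209030) had an interval of 2399 bp in replicate 1 only. Rpl26 (chr11:68901566-68904534), whose protein sits near the exit of the peptide tunnel, had an interval of 2599 bp in replicate 2 that touched the window and covered none of the gene, beside H3K4me3 peaks of 2108 and 2162 bp.

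H3K4me3 peaks were wider at ribosomal protein genes than at the comparison genes. The widest peak at a core gene had a median of 2664 bp (quartiles 2302 and 3010 bp, n = 66), with replicate medians of 2664 and 2646 bp. Genes of similar length with H3K4me3 had a median of 1964 bp (quartiles 1514 and 2598 bp, n = 1342) and mitochondrial ribosomal protein genes 1785 bp (1493 and 2155 bp, n = 74). The quartile ranges of core genes and genes of similar length overlapped. The replicates of a core gene differed by 93.5 bp in the median. Peaks of H3K9ac had medians of 2444 bp at core genes, 1662 bp at genes of similar length and 1518 bp at mitochondrial ribosomal protein genes, and peaks of H3K27ac had medians of 2372, 1696 and 1456 bp.

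ATAC-seq peaks did not follow this order. Their median was 545 bp at core genes, 594 bp at genes of similar length and 556 bp at mitochondrial ribosomal protein genes, with an SD between replicate medians of 10.6, 33.2 and 23.7 bp. Within core genes the marks were nested, since H3K4me3 was wider than H3K9ac at 55 and wider than H3K27ac at 55 of the 65 genes with all 3.

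A neighbouring gene can lengthen a peak. Another protein-coding gene lay within 2 kb of 50.0% of core genes with H3K4me3 and 67.5% of genes of similar length with it. Over all core genes and all genes of similar length, the shares were 52.1% and 44.3%. Among genes with no such neighbour the medians of H3K4me3 were 2527 bp at core genes (n = 33), 1796 bp at genes of similar length (n = 436) and 1549 bp at mitochondrial ribosomal protein genes (n = 26). The order of the 3 groups was therefore the same without neighbours. For ATAC-seq it turned, with 601 bp at the 87 genes and 582 bp at genes of similar length when those with a neighbour were left out.

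The added width lay downstream of the start. Of the 53 core genes with a listed start, 47 had the start inside an H3K4me3 peak in both replicates. From the start, these peaks reached 724 bp upstream in the median (quartiles 440 and 1073 bp), against 723 bp at 880 genes of similar length and 729 bp at 65 mitochondrial ribosomal protein genes. Downstream they reached 1862 bp (quartiles 1680 and 2126 bp), against 1129 bp (897 and 1493 bp) and 1026 bp (884 and 1154 bp). Replicate medians of the downstream reach at core genes were 1846 and 1839 bp.

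The downstream reach was 1500 bp or more at 43 of the 47 core genes (91.5%), against 24.9% of genes of similar length and 1 of the 65 mitochondrial ribosomal protein genes (1.54%). Every one of the 47 peaks was longer downstream than upstream, against 646 of the 880. The acetyl marks showed the same order, with a downstream reach of 1788 bp for H3K9ac and 1656 bp for H3K27ac at core genes, against 1012 and 963 bp at genes of similar length and 846 and 766 bp at mitochondrial ribosomal protein genes. ATAC-seq peaks over the start reached 279 bp upstream and 216 bp downstream at core genes, against 310 and 254 bp at genes of similar length. Without another gene within 2 kb, the downstream reach of H3K4me3 was 1939 bp at 23 core genes, 1274 bp at 280 genes of similar length and 930 bp at 22 mitochondrial ribosomal protein genes.

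**Figure D3:**
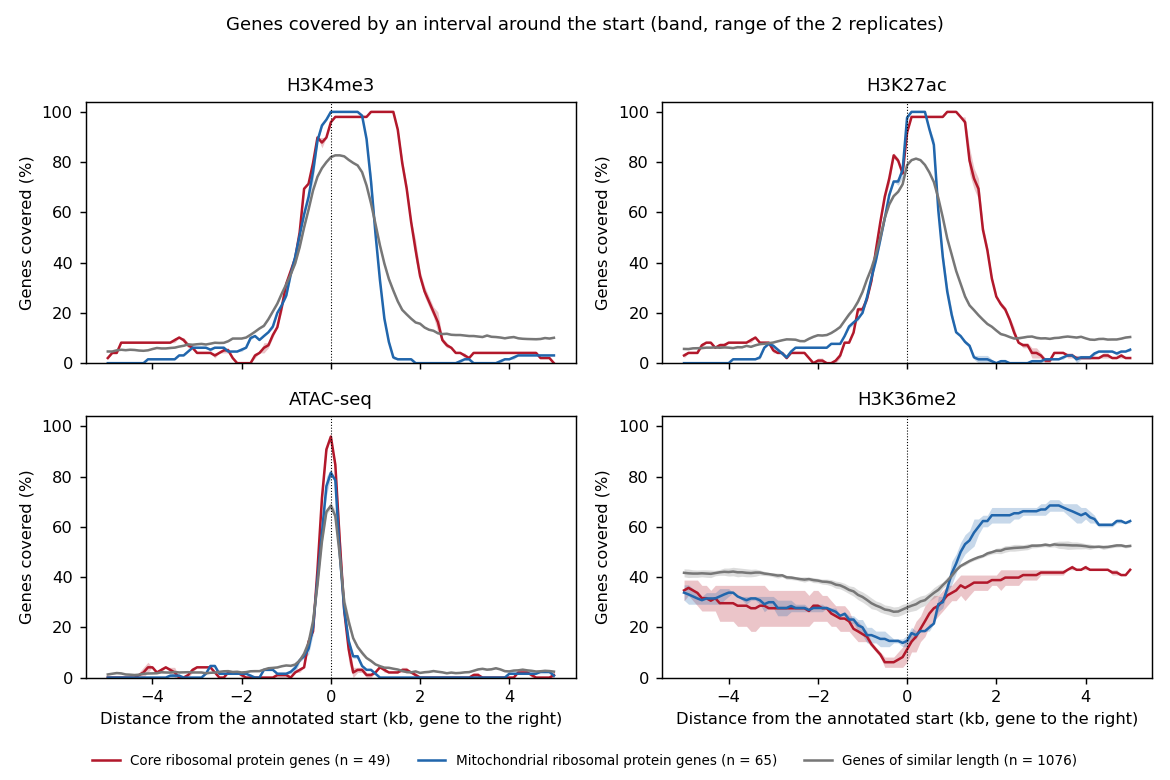
Percent of genes whose DNA lies under an interval at each distance from the annotated start (kb, the gene to the right), with a band for the range of 2 replicates, for genes with H3K4me3 in both replicates. At 1000 bp downstream H3K4me3 covers 100% of the 49 core genes, 51.5% of the 65 mitochondrial ribosomal protein genes and 55.4% of the 1076 genes of similar length, while the ATAC-seq profiles are narrow in all 3 groups.

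The reach varied little among core genes. In 46 of the 47 the mean of both replicates lay between the 1450 bp of Rpl14 and the 2777 bp of Rps9. The exception was Rps15a (chr7:118104374-118116147), for a small subunit protein, which had 4990 and 4907 bp. It also had the widest H3K4me3 peaks of all members, 5779 and 5687 bp, while its ATAC-seq peaks were 625 and 628 bp. Upstream edges varied more in relation to their distance, from 30 and 0 bp at Rps3 to 1711 and 1765 bp at Rpl7a.

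The next widest peaks were those of Rps12 (chr10:23785183-23787383), with 4179 and 4298 bp of H3K4me3, and Rpl7 (chr1:16101295-16104433), with 3936 and 3974 bp. At 4 of the 47 genes (Rps27, Rpl28, Rps15 and Rps12) H3K4me3 reached past the far end of the gene in both replicates, and at 2 (Rps23 and Rpl12) in 1 replicate. Rps27, the shortest of them with 982 bp, had downstream edges at 1741 and 1544 bp. Among the narrowest were those of Rpl3l with 1297 and 1375 bp, and Rpl27 (chr11:101442245-101445596) with 1591 and 1470 bp, neither of which covered the annotated start of its gene. In 46 of the 49 core genes with H3K4me3 and a listed start, the widest peak was the one over the start in both replicates.

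**Figure D4:**
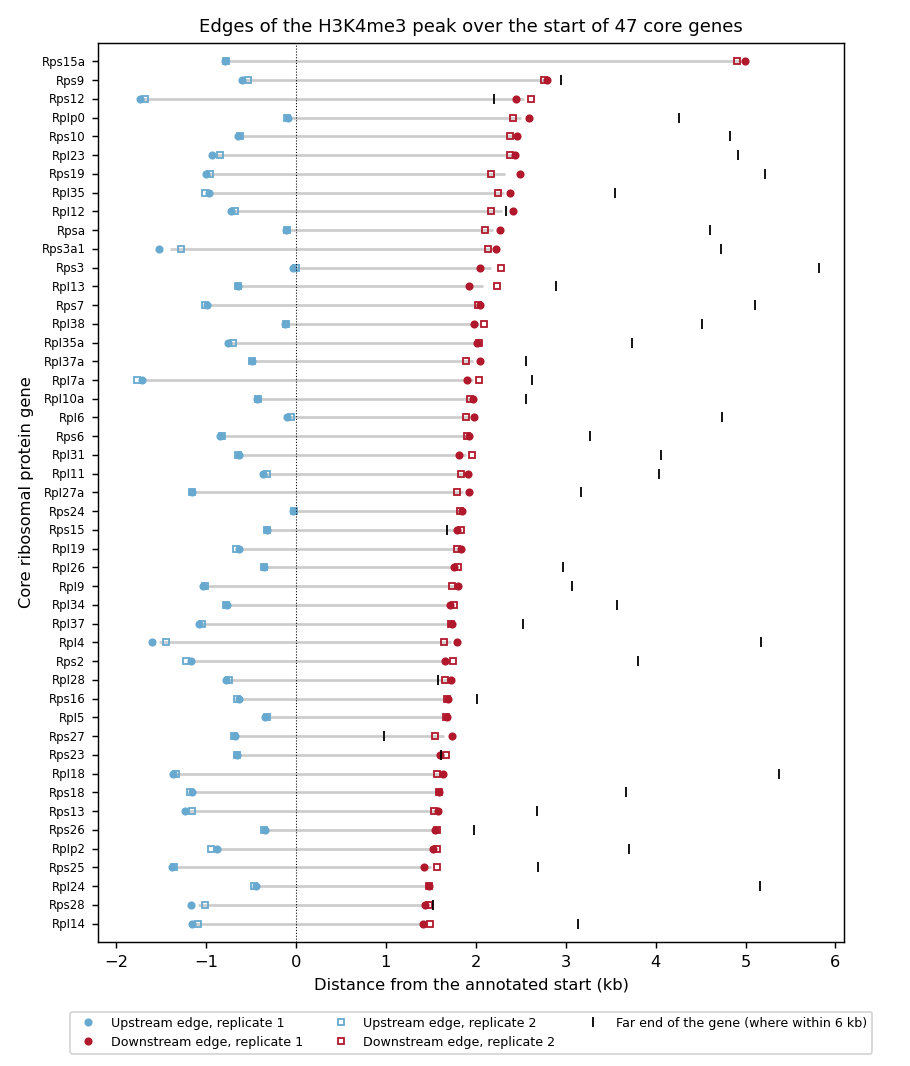
Upstream and downstream edges of the H3K4me3 peak over the start of 47 core genes, in kb from the annotated start. Filled symbols are replicate 1, open symbols replicate 2, and a tick marks the length of the gene span. The tick lies beyond the far end where the annotated start is inside the span, as at Rps2 and Rpl18. Genes whose span runs past the axis have no tick. The downstream edges lie between 1414 bp and 2793 bp in every gene but Rps15a, whose edges are at 4990 and 4907 bp.

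H3K4me3 covered much of the length of these short genes. It covered a median of 58.3% of the span of the 66 core genes with the mark, against 30.9% in genes of similar length with it and 14.8% in mitochondrial ribosomal protein genes with it, which are longer (median span of all 78, 7690 bp, against 3183 bp for core genes). In the first 50% of the span, the mean cover was 87.9% at 49 core genes with a listed start, against 57.9% at genes of similar length. In the second 50% it was 31.8% against 15.6%, and in the 2 kb past the end 5.59% against 12.3%. SDs between replicates were at most 0.344 percentage points in each of these.

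H3K36me2 was less regular. It was listed in both replicates at 39 of the 87 genes (44.8%) and 35 of the 73 core genes (47.9%), against 33.8% of genes of similar length and 48.0% of all autosomal genes. Against genes of similar length that have H3K4me3, the order turned. Of these 61.0% had H3K36me2 in both replicates, against 45.5% of the 66 core genes with H3K4me3. In single replicates the shares were 70.7% and 69.8%, against 57.6% and 68.2% of these core genes. No interval was listed in either replicate at 275 of the 1342 and 13 of the 66, so the groups were close when 1 replicate sufficed. Mitochondrial ribosomal protein genes had H3K36me2 in both replicates in 80.8%. Their spans, and so their windows, are longer, with a median span of 7690 bp against 3183 bp for core genes. The replicates differed at core genes, where 58.9% had an interval in replicate 1 and 68.5% in replicate 2 (mean 63.7%, SD 6.78). Another 8 core genes had it in replicate 1 only, 15 in replicate 2 only and 15 in neither.

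The share of the gene under H3K36me2 showed the same spread. At core genes the mean cover of the span was 40.2% in replicate 1 and 31.3% in replicate 2, above the 25.4% and 24.8% of all genes of similar length. Among genes with H3K4me3 it was 40.0% and 30.9% at core genes, below the 45.6% and 43.4% of genes of similar length. Mitochondrial ribosomal protein genes had 54.7% in both replicates. At least 50% of the span was covered in both replicates in 16 of 73 core genes (21.9%), against 37.3% of genes of similar length with H3K4me3 and 46.2% of mitochondrial ribosomal protein genes. Another 17 core genes had it in replicate 1 only and 9 in replicate 2 only. In 12 core genes (16.4%) the cover was at least 90% in 1 replicate and 0 in the other, against 7.9% of genes of similar length with H3K4me3 and 5.13% of mitochondrial ribosomal protein genes. Rplp0 was 100% covered in replicate 1 and 0% in replicate 2, and Rpl8 the reverse.

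**Figure D5:**
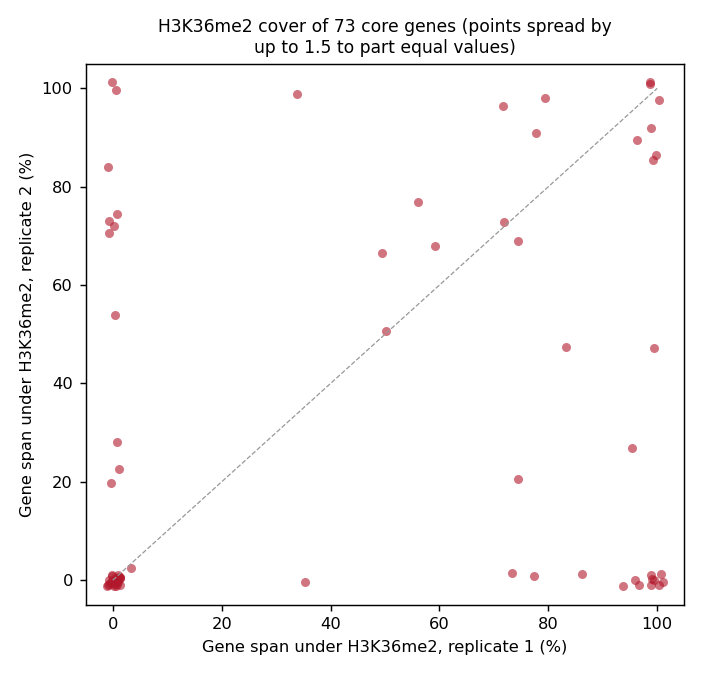
Percent of the gene span under H3K36me2 in replicate 1 (x axis) and replicate 2 (y axis) for 73 core genes, with points moved by up to 1.5 to part equal values. The points form groups at the corners, with 26 genes at 0 in both replicates and 12 at 90% or more in 1 replicate and 0 in the other.

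The highest cover among core genes was in Rpl10a (chr17:28328471-28331033), with 100% in both replicates under intervals of 18999 and 19599 bp, in Rps14 (chr18:60774596-60778546), with 99.9% and 100%, and in Rpl6 (chr5:121204501-121209241), with 100% and 97.9%. All 3 also had H3K4me3 in both replicates. Among the 26 core genes with no cover in either replicate, the first by symbol were Rpl12 (chr2:32961712-32964045), Rpl13 (chr8:123102350-123105244) and Rpl15. Rpl12 and Rpl13 had an interval in the flank in replicate 2, of 12199 and 4799 bp.

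H3K36me2 was low at the start and rose into the gene in all groups. Cover was taken along the gene span, whose edge can lie before the annotated start, as at Rpl19, Rpl18 and Rps2. At core genes with H3K4me3 and a listed start (n = 49), its mean was 17.9% ± 2.32 (SD, n = 2 replicates) in the 2 kb before the span. It was 28.8% ± 5.29 in the first 50% of the span, 40.5% ± 1.32 in the second and 45.4% ± 0.183 in the 2 kb past the end. Genes of similar length with H3K4me3 had 32.5% ± 2.4, 38.2% ± 1.95, 51.1% ± 1.38 and 51.8% ± 1.41 in these places. The means of core genes were the lower in each of these places, and the SDs are those between technical replicates. An H3K36me2 interval touched the widest H3K4me3 peak in both replicates at 19 of 66 core genes (28.8%), 40.7% of genes of similar length with H3K4me3 and 39.2% of mitochondrial ribosomal protein genes with it. The shares lay closer in single replicates, at 48.5% and 45.5% of core genes, 54.5% and 52.1% of genes of similar length, and 50.0% in both replicates of mitochondrial ribosomal protein genes. In at least 1 replicate it touched at 65.2%, 65.9% and 60.8%, where core genes were no longer the lowest.

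Not all core genes had the active marks. Of the 73, 10 lacked at least 1 of the 4 narrow sets in at least 1 replicate, and 5 had no peak of any of the 4 in either replicate. In each of these cases the statement is that no interval is listed, and whether the mark is missing from the cells was not tested.

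Rpl3 (chr15:80077781-80083406), for a protein near the peptidyl transferase centre, and Rpl15 (chr14:18267823-18270986) had no interval of any of the 6 sets in either replicate. The nearest H3K4me3 peaks lay 7202 and 7154 bp from Rpl3 and 27980 and 28036 bp from Rpl15, and the nearest ATAC-seq peaks 7795 and 7785 bp and 28425 and 28371 bp. Both replicates thus placed the nearest peaks at nearly the same distance.

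Rpl13a (chr7:45125563-45128745) and Rps29 (chr12:69157722-69159186) had H3K36me2 in both replicates and no peak of the 4 narrow sets. Their H3K36me2 intervals were 10399 and 9399 bp at Rpl13a and 4799 and 5999 bp at Rps29. At Rpl13a the mark covered 100% of the span in replicate 1, and in replicate 2 it lay in the flank and covered 0%. The nearest H3K4me3 peaks were 3233 and 3255 bp from Rpl13a and 8819 and 8720 bp from Rps29.

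Rps21 (chr2:180257379-180258444) came close to these. It had H3K36me2 intervals of 18199 and 15399 bp, an H3K9ac peak of 221 bp in replicate 2 and an H3K27ac peak of 233 bp in replicate 1, and no H3K4me3 or ATAC-seq peak. H3K36me2 was listed in both replicates at 5 of the 7 core genes without H3K4me3, against 15.8% of the 2020 genes of similar length without it.

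Rpl41 (chr10:128548110-128549168), for the smallest ribosomal protein, was among these 5. It had ATAC-seq peaks of 561 and 573 bp over its start (chr10:128548945-128549505 in replicate 1), H3K27ac peaks of 508 and 383 bp that lay 486 and 509 bp outside the gene, and no H3K4me3 or H3K9ac. Its H3K36me2 intervals lay in the flank and covered none of the gene. The nearest H3K4me3 peaks were 11181 and 11219 bp away.

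Rpl4 (chr9:64173387-64178562) and Rps24 (chr14:24490678-24496960) lacked only ATAC-seq in 1 replicate. Rpl4 had ATAC-seq peaks of 338 bp in replicate 1 and none in replicate 2, with H3K4me3 of 3391 and 3100 bp. Rps24 had none in replicate 1 and 317 bp in replicate 2, with H3K4me3 of 1880 and 1845 bp.

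Members that are often studied on their own spread over the range of the core genes, except Rpl3, which had no H3K4me3 peak. By the mean width of both replicates, Rplp0 and Rps6 lay within the quartiles of 2302 and 3010 bp. Rpsa, Rpl5 and Rpl11 lay below them and Rps19 above. Rpsa was close to the lower quartile, with a mean of 2294 bp, and above it in replicate 1. Rplp0, for the base of the ribosomal stalk (chr5:115559467-115563729), had H3K4me3 of 2688 and 2513 bp. Rpsa, for a small subunit protein also described as a laminin receptor (chr9:120127766-120132369), had 2378 and 2210 bp. Rpl5 (chr5:107900508-107909005) and Rpl11 (chr4:136049354-136053393), whose proteins bind Mdm2 when ribosome assembly is disturbed, had 2022 and 1992 bp, and 2281 and 2159 bp. Rps6 (chr4:86854099-86857367), for the protein phosphorylated by S6 kinase, had 2768 and 2721 bp. Rps19 (chr7:24884592-24889811), whose human counterpart is mutated in Diamond-Blackfan anaemia, had 3494 and 3130 bp.

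H3K36me2 parted these genes, Rpl3 aside, more than H3K4me3 did. The cover of the span was 75.4% and 68.3% at Rpl5, 100% and 0% at Rplp0, 0% and 85.3% at Rpl11, and 0% in both replicates at Rpsa, Rps6 and Rps19. Only Rpl5 had a similar cover above 0 in both replicates.

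The paralogs fell into separate classes. All 4 narrow sets were present in both replicates at 5 of 13 (38.5%), near the 33.6% of genes of similar length, and 8 had no H3K4me3 in either replicate. Rpl36al (chr12:69182734-69184067), a retrogene of the X-linked Rpl36a, had H3K4me3 of 3010 and 2970 bp, within the quartiles of the core genes. Its start is at 69184067 on the minus strand, with another gene 91 bp away. The peak (chr12:69182981-69185990 in replicate 1) was longer upstream than downstream in both replicates, unlike the core peaks over a start. Rpl7l1 (chr17:46773907-46782656) had peaks of 1693 and 1585 bp over its start, while its widest peaks, of 1826 and 1743 bp, lay beyond its far end. Rps27l (chr9:66944624-66949522), a paralog of Rps27 induced by p53, had 1746 and 1675 bp over its start, and Rpl22l1 (chr3:28805508-28807424) 1549 and 1643 bp. The peaks over the starts of these 3 were below the lower quartile of the core genes, 2302 bp.

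The fifth, Rpl3l (chr17:24727826-24736143), the paralog of Rpl3 made in heart and skeletal muscle, has its start at the lower coordinate. Its H3K4me3 peaks of 1297 and 1375 bp ran past the opposite end (chr17:24735907-24737203 in replicate 1), where the next gene begins 450 bp beyond that end, and no peak of any set covered its start. The H3K4me3 counted for Rpl3l was that at its far end.

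Among the 8 without H3K4me3, Rpl10l (chr12:66283379-66284401), Rpl39l (chr16:10170197-10174911), Rps23rg1 (chr8:3567998-3584776) and Rps27rt (chr9:114982366-114982739) had no interval of any set. Rpl10l and Rpl39l are known for their part in the testis. Rpl34-ps1 (chr6:71124589-71125001) had 1 ATAC-seq peak of 254 bp in replicate 2. Rpl37rt (chr5:115102922-115110268) lay under H3K36me2 intervals of 51199 and 52399 bp, which covered 100% and 89.1% of it. Rpl31-ps12 and Rpl32l are those with H3K27me3 given above. Rps19bp1 (chr15:80260614-80264306), for a regulator named after its binding to Rps19, had all 4 sets and H3K36me2, with H3K4me3 of 1722 and 1685 bp.

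Genes that act with the ribosomal proteins gave similar counts. Fau and Rack1, whose names hide that they make a ribosomal protein, had all 4 narrow sets and H3K36me2 in both replicates, with H3K4me3 of 2099 and 2022 bp, and 4284 and 4387 bp. Of 15 genes for other messenger RNAs with a terminal oligopyrimidine tract, mostly translation factors, 12 had all 4 sets, against 46.2% of all autosomal genes. Eef1a1, for the elongation factor that brings aminoacyl-tRNA, had H3K4me3 of 3022 bp in both replicates. Eef1d was the gene of this list with no peak of the 4 sets, beside H3K36me2 of 12999 and 8199 bp, and Hnrnpa1 had H3K9ac and H3K27ac but no H3K4me3. Of 17 genes of ribosome biogenesis, 17 had H3K4me3 and 15 all 4 sets, against 52.6% and 46.2% of all autosomal genes. These lists also hold genes with much wider windows than the core genes, such as Eif3h with a span of 78899 bp and Polr1a with 70383 bp. Ubtf, for a factor of ribosomal DNA transcription, had the widest H3K4me3 of that list, with 5644 and 5653 bp.

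The members are on 18 of the 19 autosomes, with none on chromosome 19. Chromosome 7 holds 14 of them (16.1%), against 9.83% of all autosomal protein-coding genes.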

How the data were processed

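Of 15 samples of EL4 cells, 12 had interval lists used here. The input library and both libraries of RNA were not analysed here. The authors aligned reads with STAR v2.5 to GRCm38, kept unique alignments, treated duplicates with Picard, and called intervals per replicate, with macs2 for the narrow marks and for ATAC-seq and with Epic for H3K36me2 and H3K27me3. The deposited lists give chromosome, start and end of each interval and no score, so depth is unknown and interval widths follow the callers' thresholds. Epic works in bins of 200 bp. The methods state that reads on chromosome X were discarded, although the lists hold intervals there.

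Gene spans were those of RefSeq GRCm38.p6 and promoters and starts those of the RefSeq promoter table. Rps23rg1 was placed with the paralogs after the table was seen. Counting used Python 3.11.15 with numpy 2.4.6 and pandas 2.3.3, was tested on simulated intervals and gave the same counts as bedtools 2.31.1 in all 12 libraries. Cover is the percent of the gene span under intervals, and values are means of the 2 replicates where no replicate is named. No test was run, since the 2 replicates of a set carry no comparison and genes are not replicates. Members and gene lists were chosen with earlier results of these data known. Genes named singly are those lacking a narrow set, those with H3K27me3, all paralogs, the 3 widest and narrowest H3K4me3 peaks, the 3 highest and lowest H3K36me2 covers of core genes, and Rplp0, Rpsa, Rpl3, Rpl5, Rpl11, Rps6 and Rps19. Some genes that this rule would name are not reported here. Others (Rpl14, Rps9, Rps3, Rpl7a, Rpl8, genes with H3K4me3 past their end and those of the further lists) were named after their values were seen. The comparisons with genes carrying H3K4me3 and with mitochondrial ribosomal protein genes, and the reach from the start, were also added then.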

Additional observations from a re-analysis of the deposited data

How the results depend on the processing

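The lists hold no counts, so what depth limits cannot be measured, and the width and cover of an interval depend on the callers' thresholds. No paired analysis was possible because the results come from no test. The share of ribosomal protein genes with H3K9ac, H3K27ac or ATAC-seq was above that of genes of similar length in 16 of 16 settings, the main one included, as was that with H3K4me3 in the 15 settings that did not choose genes by this mark. The share with H3K27me3 was below it in 16 of 16. The order of the median widths was the same in 11 of 11 settings for H3K4me3, H3K9ac and H3K27ac. ATAC-seq peaks were narrower at ribosomal protein genes in 10 of 11 settings. The share with H3K36me2 was above that of the comparison genes in 14 of 16, the exceptions being all autosomal genes and genes with H3K4me3. A share is called moved when it changed by over 1.5 times, and a median when it changed by more than the SD of the 2 replicate medians, which is small for widths. In all, 29 of 156 shares and 44 of 68 widths moved. In each sentence below the ribosomal protein genes come first. The cause of each change was not tested where the setting does not show it.

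With 1 replicate left out, H3K27me3 was at 2.3% in both cases, and the median H3K36me2 cover at 0.0% in both cases. Median widths were then 2554 to 2585 bp and 1958 to 1962 bp (H3K4me3), 2388 to 2433 bp and 1644 to 1644 bp (H3K9ac), 2258 to 2351 bp and 1667 to 1670 bp (H3K27ac), and 532 to 555 bp and 551 to 597 bp (ATAC-seq).

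With replicates merged, 71.3% had H3K36me2, 3.45% and 19.1% H3K27me3, and the median H3K36me2 cover was 61.8%, also with intervals within 1 kb joined (61.8%). Widths were then 2640 and 1998 bp (H3K4me3), 2528 and 1740 bp (H3K9ac), 2419 and 1773 bp (H3K27ac) and 617 and 647 bp (ATAC-seq).

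Core genes alone had 0.0% H3K27me3, a median H3K4me3 width of 2664 bp and H3K36me2 cover of 37.3% in the mean of both replicates, with a median of 0.0% in each. Comparison genes from the shortest to the longest member span had widths of 1918 bp (H3K4me3), 1603 bp (H3K9ac) and 1606 bp (H3K27ac), and all autosomal genes had 1931, 1601 and 1604 bp, 18.8% H3K27me3 and a median H3K36me2 cover of 4.05%.

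With the gene span alone, the H3K9ac width was 2378 and 1640 bp, and at comparison genes H3K4me3 was 1958 bp and H3K27ac 1672 bp. With 5 kb on each side, 2.3% had H3K27me3, the ATAC-seq width was 574 bp, and comparison genes had 2003 bp (H3K4me3), 1688 bp (H3K9ac) and 1724 bp (H3K27ac). Within 1 kb of the start, 22.7% and 21.6% had H3K36me2, and 6.99% of comparison genes H3K27me3. Widths there were 2536 and 1992 bp (H3K4me3), 2354 bp (H3K9ac), 2265 and 1684 bp (H3K27ac) and 500.0 bp (ATAC-seq). The H3K36me2 cover with 2 kb on each side was 30.2%.

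With narrow intervals of at least 500 bp and broad ones of at least 5000 bp, 41.4% and 19.5% had ATAC-seq, and 0.0% and 7.05% H3K27me3. Without another gene within 2 kb, comparison genes had H3K4me3 in 23.3%, H3K9ac in 22.5%, H3K27ac in 23.1%, ATAC-seq in 19.1%, H3K36me2 in 15.1% and H3K27me3 in 17.1%, and ribosomal protein genes H3K27me3 in 0.0%. The setting without neighbours was added for widths after the data were seen, with 2484 and 1796 bp (H3K4me3), 2288 and 1535 bp (H3K9ac), 2282 and 1540 bp (H3K27ac) and 601 and 582 bp (ATAC-seq).

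Among genes with H3K4me3, a choice also added after the data were seen, comparison genes had H3K4me3 in 100% by construction, H3K9ac in 97.2%, H3K27ac in 97.0%, ATAC-seq in 84.6%, H3K36me2 in 61.0% and H3K27me3 in 1.56%, ribosomal protein genes had H3K27me3 in 0.0%, and the median H3K36me2 covers were 37.0% and 48.0%.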

Other observations

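The 4 ribosomal protein genes on chromosome X were left out of the 87. Rpl10, for a late-joining protein of the large subunit, had H3K4me3 peaks of 3309 and 3365 bp, Rpl39 of 3367 and 3451 bp, Rps4x of 3655 and 3721 bp and Rpl36a of 2556 and 2650 bp. All 4 also had H3K9ac, H3K27ac and ATAC-seq in both replicates, and none had H3K36me2 or H3K27me3. Few intervals of these 2 marks were listed on chromosome X as a whole. For H3K36me2 they were 331 of 38897 and 350 of 40826, and for H3K27me3 524 of 46015 and 396 of 38014. The lack at these 4 genes can therefore not be read as particular to them. The methods state that reads on this chromosome were discarded, so how these intervals arose is not known from the sources used here.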
